A study of Mus musculus with 16 samples.

Results

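The 8 genes described here encode parts of the renin-angiotensin system, and they are Agt, Atp6ap2, Ace, Cma1, Enpep, Agtr1a, Agtr2 and Mas1. They were chosen by their gene symbols from the 22372 protein-coding genes of a table of normalized counts, with earlier results of these libraries known, among them the strong response of Ace. Their values are therefore given as a description with no p-value. The libraries were made from ventricular tissue of 16 C57BL/6J mice, 4 in each of 4 groups, all aged 10 to 12 weeks when the experiment began. Sham-Veh mice had a sham operation and received vehicle, and Sham-THZ1 mice had the same operation and received THZ1. TAC-Veh and TAC-THZ1 mice had transverse aortic constriction (TAC), in which a suture around the aortic arch makes the left ventricle pump against a raised pressure, and then received vehicle or THZ1. THZ1 is a covalent small molecule inhibitor of the transcription kinases CDK7, CDK12 and CDK13. Per the labels each intraperitoneal injection held 10 mg/kg, and 2 of them were given daily between postoperative days 1 and 60. The vehicle was DMSO in a dextrose solution, and the libraries come from whole pieces of ventricle with all their cell types.

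The renin-angiotensin system is a peptide cascade that controls blood pressure and salt balance. Angiotensinogen from the liver is cut by renin from the kidney to angiotensin I, which angiotensin-converting enzyme on the endothelial surface turns into angiotensin II. Angiotensin II acts through the AT1 receptor to constrict vessels and to promote hypertrophy and fibrosis in the heart, while the AT2 and Mas receptors are known for opposing actions, Mas through angiotensin-(1-7). Messenger RNA in the ventricle reports on local transcripts only, and not on the circulating peptides.

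The recovered depth was 21.4 to 35.8 M (mega) reads in protein-coding genes per library. Mitochondrial genes took 33.2% to 44.7% of these reads. All 10 cardiomyocyte markers of the tissue check were found, none was at 0, and 13331 genes passed the filter on low values. Of 10 genes in each marker list, 6 cardiomyocyte genes were lower with TAC under vehicle (median log2 fold change -0.65) and 7 fibroblast genes were higher (median 1.06), by limma at an adjusted p under 0.05. A bulk library cannot tell fewer cells of a type from less RNA per cell.

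Angiotensinogen, the precursor of all angiotensin peptides, is encoded by Agt (chr8:127080434-127093606, minus strand, NCBIM37, the build of all gene positions given here). Agt was sparse in the ventricle and had a single library far above the rest. The libraries held normalized counts of 55.2, 73.8, 61.9 and 68.9 in Sham-Veh and 51.3, 94.2, 80.1 and 103 in Sham-THZ1. They were 372, 37.2, 63.4 and 29.8 in TAC-Veh and 141, 81.5, 96.0 and 67.3 in TAC-THZ1. All 4 groups overlapped, and TAC-Veh replicate 1 alone held 316 of the reads of Agt, against 35 to 64 in the other TAC-Veh libraries. The log2 fold change of TAC-Veh against Sham-Veh was 0.15 (SE 0.54). It turned to -0.63 without that library and was 0.89 with the count model of edgeR and 0.95 with that of DESeq2. TAC-THZ1 against TAC-Veh gave 0.36 (SE 0.54), which became 1.15 without it and -0.32 with edgeR.

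Renin itself was all but absent from these libraries. Ren1, the renin gene of this strain, had 1 read in TAC-THZ1 replicate 3 and 0 reads in the other libraries. Atp6ap2 (chrX:12164927-12194175, plus strand) encodes the (pro)renin receptor, which is also an accessory subunit of the vacuolar proton pump. Sham hearts gave normalized counts of 564, 540, 577 and 494 in Sham-Veh and 545, 555, 528 and 543 in Sham-THZ1. They were 850, 756, 602 and 624 in TAC-Veh and 582, 479, 607 and 524 in TAC-THZ1. Every TAC-Veh library lay above every Sham-Veh library, the nearest pair being 602 and 577, whereas TAC-Veh and TAC-THZ1 overlapped. The log2 fold change was 0.37 (SE 0.10) for TAC-Veh against Sham-Veh and -0.36 (SE 0.10) for TAC-THZ1 against TAC-Veh.

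Ace (chr11:105829259-105851278, plus strand) encodes angiotensin-converting enzyme, and its transcript level separated TAC-Veh from every other group. Its normalized counts were 2022, 1891, 1811 and 2038 in Sham-Veh and 2016, 2028, 1998 and 2119 in Sham-THZ1. With TAC they were 6208, 6472, 4011 and 5644 in TAC-Veh and 2225, 1870, 1978 and 2366 in TAC-THZ1. Even the lowest TAC-Veh library was thus above all 12 libraries of the other groups, and these 3 groups overlapped with one another. The TAC-Veh mean was 5584 ± 1104 normalized counts, against 1941 ± 109 for Sham-Veh, 2040 ± 54.2 for Sham-THZ1 and 2110 ± 226 for TAC-THZ1 (SD, n = 4). Ace was 2.83-fold higher in TAC-Veh than in Sham-Veh (log2 fold change 1.50, SE 0.12) and 2.61-fold lower in TAC-THZ1 than in TAC-Veh (log2 fold change -1.39, SE 0.12).

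The summed fibroblast markers moved in the directions of Ace with TAC and with THZ1 in TAC. The 10 fibroblast markers summed to 87816 to 104491 normalized counts in TAC-Veh, against 55721 to 62383 in Sham-Veh and 62698 to 87128 in TAC-THZ1. In Sham-THZ1 they summed to 58918 to 62890. Between TAC-THZ1 and Sham-THZ1, where Ace overlapped, 4 of the 10 were higher with TAC and 1 was lower by limma. The sums of the 10 endothelial markers, whose cells are known for ACE on their surface, spanned 24957 to 31120 in TAC-Veh, 27399 to 29619 in Sham-Veh and 23616 to 26464 in TAC-THZ1. The endothelial range of TAC-Veh thus spanned that of Sham-Veh, and no marker of either list was at 0 in a group. By limma, 2 of the 10 endothelial markers were higher and 2 were lower with TAC, and 1 was higher and 3 were lower with THZ1 in TAC. Of 10 macrophage markers, 6 were higher with TAC by limma, and none was called with THZ1 in TAC. The median log2 fold change of the 10 macrophage markers was 0.59 with TAC and -0.12 with THZ1 in TAC. The part of the fibroblast, endothelial and macrophage markers in the change of Ace was not tested.

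Cma1 (chr14:56560290-56563498, minus strand) encodes mast cell chymase, a protease that can also form angiotensin II. It had 7 to 30 reads per library. By library, the normalized counts of Cma1 were 29.7, 17.6, 15.9 and 24.1 in Sham-Veh and 15.5, 16.4, 12.0 and 19.2 in Sham-THZ1. They were 16.5, 7.15, 6.93 and 23.0 in TAC-Veh and 24.0, 19.1, 24.4 and 16.8 in TAC-THZ1. Values overlapped between all groups. The log2 fold changes were -0.79 (SE 0.33) for TAC-Veh against Sham-Veh and 0.77 (SE 0.33) for TAC-THZ1 against TAC-Veh. Beside it, the 10 mast cell markers summed to 545 to 675 normalized counts in TAC-Veh, 624 to 744 in Sham-Veh and 575 to 692 in TAC-THZ1, and 4 of them (Fcer1a, Ms4a2, Tpsab1 and Mrgprb1) averaged under 10. The 6 that could be tested had a median log2 fold change of -0.38 with TAC (range -0.65 to 0.68). With THZ1 in TAC it was 0.31 (range -0.51 to 0.77). These medians had the directions of Cma1, but the ranges included values of the other sign. None of the 6 was past a limma adjusted p under 0.05 with TAC, and 2 were higher past it with THZ1 in TAC. Whether mast cell number has a part in the values of Cma1 was not tested.

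**Figure D1:**
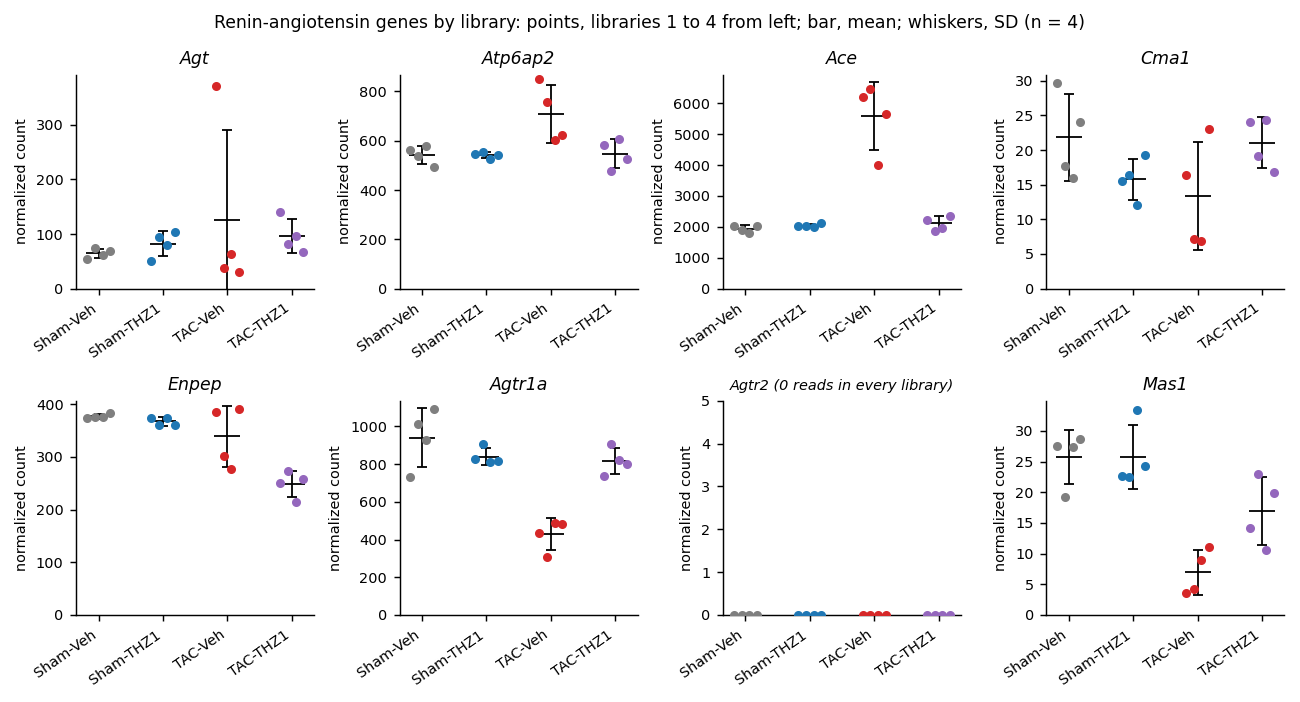
Normalized counts of the 8 members (vertical axes, each from 0) in the 4 groups, with libraries 1 to 4 as points from left to right, the mean as a bar and the SD as whiskers (n = 4, the lower whisker of Agt in TAC-Veh is cut at 0). Ace stands apart upward and Agtr1a downward in TAC-Veh, Enpep is lowest in TAC-THZ1, and the high point of Agt is TAC-Veh replicate 1 at 372.

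Enpep (chr3:128972093-129035638, minus strand) encodes aminopeptidase A, which trims angiotensin II to angiotensin III. Unlike Ace and Agtr1a, it was lowest in TAC-THZ1. For Enpep the normalized counts were 373, 375, 376 and 384 in Sham-Veh and 375, 360, 374 and 361 in Sham-THZ1. They were 386, 302, 277 and 392 in TAC-Veh and 251, 272, 214 and 258 in TAC-THZ1. Sham hearts varied little, TAC-Veh split into a pair of libraries near the sham level and a pair below it, and all 4 TAC-THZ1 libraries lay below all 12 others. The closest values were 272 in TAC-THZ1 and 277 in TAC-Veh. The log2 fold change was -0.17 (SE 0.10) for TAC-Veh against Sham-Veh, -0.43 (SE 0.10) for TAC-THZ1 against TAC-Veh and -0.56 (SE 0.10) for TAC-THZ1 against Sham-THZ1. The pericyte and smooth muscle markers summed to 34841 to 35563 in Sham-THZ1 and to 25164 to 26160 in TAC-THZ1, and the endothelial markers to 30679 to 32759 and 23616 to 26464. In TAC-Veh the pericyte and smooth muscle sum averaged 25346, against 25696 in TAC-THZ1. Between these groups, 2 of the 10 pericyte and smooth muscle markers were higher with THZ1 and 2 were lower by limma. The median of their log2 fold changes was -0.13, with a range of -1.06 to 0.56. The endothelial sum averaged 28204 in TAC-Veh and 24989 in TAC-THZ1. Their part in the level of Enpep was not tested.

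Agtr1a (chr13:30428310-30474736, plus strand) encodes the main AT1 receptor of rodents, through which angiotensin II raises vascular tone and drives growth. It moved opposite to Ace. Its normalized counts were 732, 1014, 927 and 1093 in Sham-Veh and 828, 907, 812 and 816 in Sham-THZ1. They were 433, 307, 489 and 483 in TAC-Veh and 738, 909, 821 and 802 in TAC-THZ1. All 4 TAC-Veh libraries lay below the 12 others, and the other 3 groups overlapped. The TAC-Veh mean was 428 ± 84.3, against 941 ± 155 for Sham-Veh, 840 ± 44.6 for Sham-THZ1 and 817 ± 70.5 for TAC-THZ1 (SD, n = 4). Agtr1a was 2.21-fold lower in TAC-Veh than in Sham-Veh (log2 fold change -1.14, SE 0.14) and 1.93-fold higher in TAC-THZ1 than in TAC-Veh (log2 fold change 0.95, SE 0.14). The cardiomyocyte markers moved in the same directions (medians of the log2 fold change -0.65 and 0.47). Of these 10, 6 were lower in TAC-Veh than in Sham-Veh and 6 were higher in TAC-THZ1 than in TAC-Veh. Of 10 pericyte and smooth muscle markers, 5 were lower and 1 was higher with TAC by limma. With THZ1 in TAC, 2 of them were higher and 2 were lower. Fibroblast markers went the other way, with 7 of 10 higher with TAC and 6 of 10 lower with THZ1 in TAC. The part of these 3 marker lists in the change of Agtr1a was not tested.

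The remaining angiotensin receptors were sparse. Agtr1b, the rodent paralog of Agtr1a, had 1 read in each of Sham-Veh replicate 3, Sham-THZ1 replicate 1 and Sham-THZ1 replicate 2, and 0 in the other libraries. Agtr2 (chrX:21061670-21066290, plus strand), which encodes the AT2 receptor, had 0 reads in all 16 libraries. A count of 0 still allows up to 3 reads, or 2.15 to 4.01 normalized counts depending on the library, for counting error only. Mas1 (chr17:13033945-13061009, minus strand) encodes the Mas receptor of angiotensin-(1-7). Mas1 had normalized counts of 27.6, 19.3, 27.4 and 28.7 in Sham-Veh and 22.7, 22.5, 33.4 and 24.3 in Sham-THZ1. They were 3.53, 4.29, 8.92 and 11.1 in TAC-Veh and 14.2, 22.9, 10.6 and 19.8 in TAC-THZ1. TAC-Veh lay below both sham groups but overlapped TAC-THZ1, whose lowest library stood at 10.6. These values rest on 3, 6, 9 and 13 reads in TAC-Veh and on 24 to 31 reads per library in Sham-Veh, so Mas1 passed the filter mainly through the other groups. The log2 fold change was -1.85 (SE 0.32) for TAC-Veh against Sham-Veh and 1.23 (SE 0.32) for TAC-THZ1 against TAC-Veh.

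Over the 7 members that passed the filter on low values (all but Agtr2), 4 were past a limma adjusted p under 0.05 in TAC-Veh against Sham-Veh, with Ace and Atp6ap2 higher and Agtr1a and Mas1 lower. Across all genes tested 45.0% were past it in that comparison. In TAC-THZ1 against TAC-Veh 5 members were past it, with Ace, Atp6ap2 and Enpep lower and Agtr1a and Mas1 higher, against 29.4% of all genes. These 2 comparisons share the TAC-Veh libraries, so opposite signs in them are not independent. Atp6ap2, Enpep and Mas1 were no longer past the adjusted p in TAC-THZ1 against TAC-Veh when these 2 groups were fitted alone. The median log2 fold change of the members was -0.17 with TAC and 0.36 with THZ1 in TAC, and that of all genes was -0.00 and 0.01. Since the members were chosen with results known, nothing is read from these counts.

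In sham hearts no member was past the adjusted p with THZ1 by limma, edgeR or DESeq2, against 0.0675% of all genes called by limma. At an unadjusted limma p under 0.05 the count was 0 of 7 members and 917 of 13331 genes, so a count of 0 says little about the members. The log2 fold changes of Sham-THZ1 against Sham-Veh ran from -0.42 for Cma1 to 0.30 for Agt, with 0.07 (SE 0.12) for Ace and -0.15 (SE 0.14) for Agtr1a. For Ace the 95% interval of this change was -0.17 to 0.32, and for Agtr1a it was -0.44 to 0.14. The intervals were wider for the sparse members, at -0.83 to 1.43 for Agt, -1.12 to 0.28 for Cma1 and -0.67 to 0.66 for Mas1. Changes within these bounds are not excluded.

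Between the surgeries under THZ1, Enpep was the only member past the adjusted p, in a comparison with 24.2% of all genes called. Since the members were chosen with results known, nothing is read from this call. The 95% interval of the log2 fold change of TAC-THZ1 against Sham-THZ1 was -0.20 to 0.29 for Ace and -0.33 to 0.24 for Agtr1a. Mas1 had a value of -0.62 (SE 0.32), and its groups overlapped. The difference between the effect of THZ1 in TAC and in sham hearts was -1.46 (SE 0.16) on the log2 scale for Ace and 1.10 (SE 0.19) for Agtr1a. They were the 2 members past the adjusted p for this interaction, which 10.0% of all genes passed, and as the response of Ace was known when the members were chosen, nothing is read from this count. The interaction was 1.24 (SE 0.45) for Mas1, 1.19 (SE 0.47) for Cma1, -0.40 (SE 0.15) for Enpep, -0.36 (SE 0.14) for Atp6ap2 and 0.07 (SE 0.76) for Agt. The number of members past it rose to 5 without TAC-Veh replicate 3 and to 4 without TAC-Veh replicate 4. The share of all genes past it in these runs is not given here, so nothing is read from the rise.

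**Figure D2:**
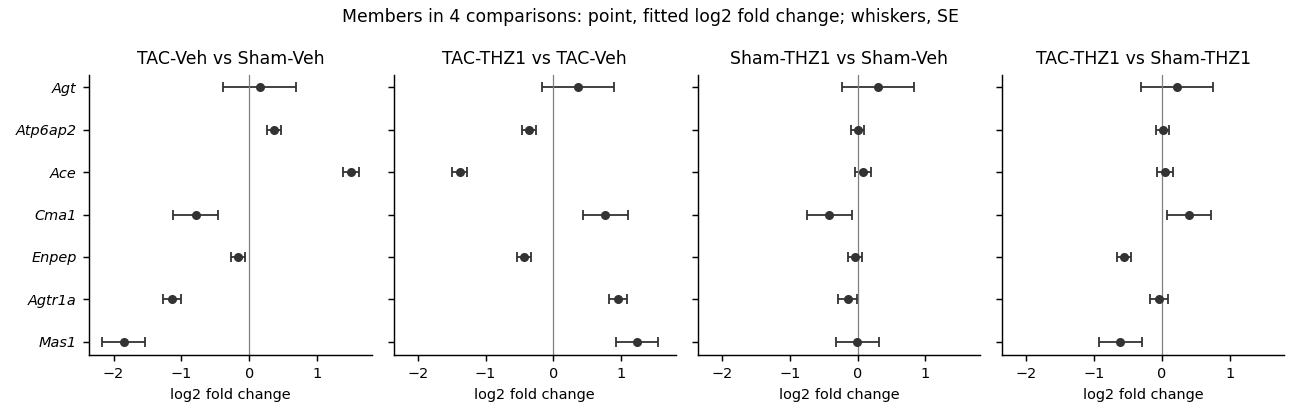
Fitted log2 fold changes (horizontal axes) of the 7 members that passed the filter in 4 comparisons, with whiskers for the SE from limma over 16 libraries. Ace is at 1.50 and Agtr1a at -1.14 in TAC-Veh against Sham-Veh, and their signs are opposite in TAC-THZ1 against TAC-Veh. The sham comparison runs from -0.42 for Cma1 to 0.30 for Agt.

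Levels of different genes were compared as normalized counts per kb of exon. In Sham-Veh the group means per kb were 382 for Agtr1a, 367 for Ace, 208 for Atp6ap2, 80.1 for Enpep, 34.3 for Agt, 20.3 for Cma1 and 9.82 for Mas1. Agtr1a and Ace could not be ordered, since their libraries spanned 297 to 443 and 342 to 385 per kb. Atp6ap2, at 189 to 221 per kb, was below both and above Enpep, at 79.3 to 81.5. Cma1, at 14.8 to 27.7 per kb, lay below Agt, at 29.2 to 39.0, and above Mas1, at 7.35 to 11.0. In TAC-Veh the mean of Ace was 1056 per kb and that of Agtr1a 174, with libraries from 759 to 1224 and from 125 to 198. Ace then led the members in every library, and Atp6ap2, at 230 to 325 per kb, stood above Agtr1a.

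**Figure D3:**
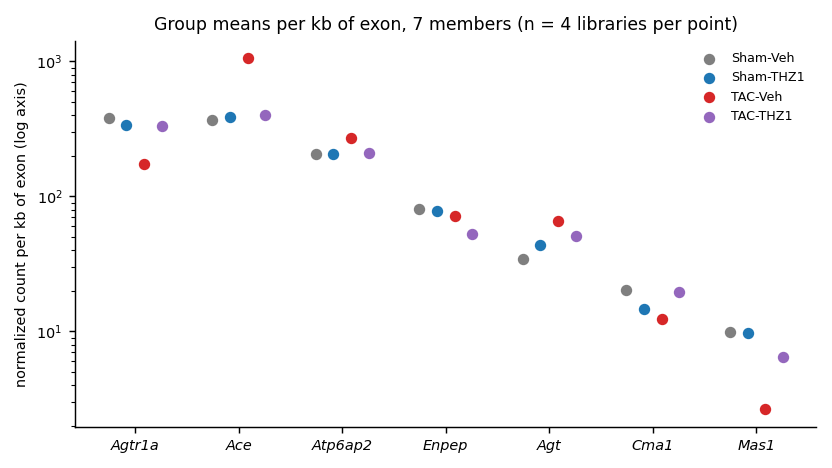
Group means of normalized counts per kb of exon (vertical axis, log scale) for 7 members, with 1 point per group of 4 libraries. Agtr1a at 382 and Ace at 367 are close in Sham-Veh and far apart in TAC-Veh, at 174 and 1056.

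The sequence before the start of a gene is where its promoter lies, and it is shown for members past the adjusted p with TAC. RefSeq entries on GRCm38.p6, a later build than that of the counts, were found for 7 of the 8 members, and Agtr1a was the member with none. The windows hold the 150 bases before the annotated start, read 5′ to 3′ along the gene, and Ace has 2 starts in the table. Ace start 1 is chr11:105967798-105967947 (plus strand), Ace start 2 is chr11:105975039-105975188 (plus strand), Atp6ap2 is chrX:12587609-12587758 (plus strand) and Mas1 is chr17:12868144-12868293 (minus strand). Capitals mark matches on either strand to the GC box (GGGCGG), the TATA box (TATAAA), the AP-1 site (TGANTCA) or the CArG box.
Ace start 1: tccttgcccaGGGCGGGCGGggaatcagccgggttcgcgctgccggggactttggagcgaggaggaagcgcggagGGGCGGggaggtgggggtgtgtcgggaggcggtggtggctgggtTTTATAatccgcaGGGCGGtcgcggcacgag
Ace start 2: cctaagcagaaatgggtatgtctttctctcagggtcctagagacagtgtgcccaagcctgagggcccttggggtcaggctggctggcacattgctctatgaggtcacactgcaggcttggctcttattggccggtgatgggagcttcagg
Atp6ap2: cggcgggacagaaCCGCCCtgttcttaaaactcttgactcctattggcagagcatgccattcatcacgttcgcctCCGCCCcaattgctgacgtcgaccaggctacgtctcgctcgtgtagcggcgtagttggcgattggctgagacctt
Mas1: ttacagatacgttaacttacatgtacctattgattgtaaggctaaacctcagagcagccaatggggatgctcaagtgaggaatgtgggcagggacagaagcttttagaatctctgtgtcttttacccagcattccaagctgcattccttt
The GC box had 4 matches in the window of Ace start 1, of which 2 overlap each other, and 2 in that of Atp6ap2. The window of Ace start 1 also held 1 TATA box match. The windows of Ace start 2 and Mas1 held none of the 4 motifs, which says only that these letters are not there. Of 32851 windows of the same length in the table, 28.6% held a GC box, 7.57% a TATA box, 4.24% an AP-1 site and 0.916% a CArG box. The share of G and C was 71.3% for Ace start 1, 57.3% for Atp6ap2, 56.7% for Ace start 2 and 43.3% for Mas1. Counts per gene do not tell which start the Ace reads came from.

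Other genes of the system were listed by role and tested. Of 25 such genes 15 passed the filter, and in TAC-Veh against Sham-Veh 5 were higher and 5 were lower at a limma adjusted p under 0.05, a share of calls to be read against the 45.0% of all genes. Mme, which encodes neprilysin, a peptidase that forms angiotensin-(1-7), showed a log2 fold change of -1.96 (SE 0.40, limma adjusted p = 8.68e-04). The Sham-Veh libraries held 184 to 216 normalized counts of it and the TAC-Veh libraries 15.3 to 114, without overlap. Nr3c2, the mineralocorticoid receptor that aldosterone binds, had a log2 fold change of -1.25 (SE 0.17, limma adjusted p = 2.49e-05), with 577 to 760 in Sham-Veh and 207 to 360 in TAC-Veh. The aminopeptidase N gene Anpep was lower too (log2 fold change -0.50, limma adjusted p = 0.0207), a call lost without TAC-Veh replicate 1 or TAC-Veh replicate 3. Higher were the lysosomal proteases Ctsd (log2 fold change 0.45, limma adjusted p = 9.53e-04) and Ctsa (0.36, limma adjusted p = 5.47e-04) and the dipeptidyl peptidase Dpp3 (0.32, limma adjusted p = 0.00364). Ctsd shares exonic sequence on its strand with 6330512M04Rik, so reads there are uncertain.

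With THZ1 in TAC, 3 of these 15 genes were higher and 6 were lower, beside 29.4% of all genes called. Mme was higher in TAC-THZ1 than in TAC-Veh (log2 fold change 1.43, SE 0.40, limma adjusted p = 0.0131) although the groups overlapped at 104 and 114 normalized counts. Nr3c2 was higher without overlap (0.82, SE 0.17, limma adjusted p = 0.00228), and the mast cell carboxypeptidase gene Cpa3 was just past the threshold (0.77, limma adjusted p = 0.0490). Lower were the aminopeptidase gene Lnpep, whose product is also called the AT4 receptor (-0.34, limma adjusted p = 0.0151), Prcp (-0.28, limma adjusted p = 0.00809) and Ctsd (-0.28, limma adjusted p = 0.0336). The count of 9 fell to 1 when the 2 groups were fitted alone, to 3 without TAC-Veh replicate 2, and to 5 without TAC-THZ1 replicate 2 or replicate 3. For these runs the share of all genes called is not given here. For Nr3c2 the effect of THZ1 in TAC exceeded that in sham by 1.21 (SE 0.24, limma adjusted p = 0.00707 for the interaction), the one such gene past the threshold. In sham hearts no gene of the list was past it by limma over all 16 libraries, edgeR or DESeq2, while Nr3c2 was past it by limma with only these groups fitted or with array weights. At an unadjusted limma p under 0.05 there were 2 of the 15, beside 917 of all 13331 genes. Among genes too sparse to test, Kng1, Mrgprd and Cyp11b2 (kininogen, the receptor MrgD and aldosterone synthase) had 0 reads in every library.

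Genes that couple the AT1 receptor to the cell, such as G proteins, kinases and NADPH oxidases, had their largest fold change in Nox4. Of 14 tested, 3 were higher and 2 were lower with TAC by limma, beside 45.0% of all genes called by limma. DESeq2 called 8 of the 14, and the share of all genes that it called is not given here. Nox4, a hydrogen peroxide producing oxidase, ranged from 342 to 1070 normalized counts in TAC-Veh and from 43.3 to 188 in TAC-THZ1. The sham ranges were 32.7 to 50.9 with vehicle and 27.4 to 44.1 with THZ1. TAC-Veh lay above all other libraries, with a log2 fold change of 3.83 (SE 0.37, limma adjusted p = 1.21e-06) over Sham-Veh and -2.71 (SE 0.37, limma adjusted p = 1.42e-04) for TAC-THZ1 against TAC-Veh. Grk5, a kinase that desensitizes receptors, was raised in TAC-Veh by 0.81 (SE 0.11, limma adjusted p = 3.59e-05) and reduced in TAC-THZ1 by a log2 fold change of -0.77 (SE 0.11, limma adjusted p = 2.45e-04). The G protein regulator Rgs2 was lower with TAC (-0.84, limma adjusted p = 0.00458), as was the G protein gene Gna12 (-0.40, limma adjusted p = 0.0111), while Gna13 was higher (0.19, limma adjusted p = 0.0369). With THZ1 in TAC, 2 were higher (Cyba and Gna11) and 4 were lower (Nox4, Grk5, Gnaq and Gna13), beside 29.4% of all genes called, and Nox4 and Grk5 alone differed by over 0.3 among these 6. That count of 6 was 2 without TAC-Veh replicate 2 and 3 without TAC-THZ1 replicate 1 or replicate 2. Again the share of all genes called in these runs is not given here. In sham hearts 0 of the 14 were past the adjusted p with THZ1 by limma. At an unadjusted limma p under 0.05 there were 5, beside 917 of all 13331 genes. Grk5 was among them, higher with THZ1 by a log2 fold change of 0.34 (SE 0.11) and without overlap.

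Genes known to respond to angiotensin II were mostly raised in TAC-Veh and less abundant in TAC-THZ1. The list was made by role, but Ctgf on it had been reported in these libraries before, so it is not independent evidence. Of 8 tested, 6 were higher with TAC and none was lower, beside 45.0% of all genes called in either direction. Fibroblast markers moved in the same directions, with 7 of 10 higher with TAC and 6 of 10 lower with THZ1 in TAC, and their part in the values of these genes was not tested. The largest log2 fold changes were those of Timp1 (4.11, SE 0.47, limma adjusted p = 5.69e-06), Spp1 (4.11, SE 0.52, limma adjusted p = 1.48e-05) and Ctgf (2.97, SE 0.34, limma adjusted p = 5.94e-06). These encode a metalloproteinase inhibitor, osteopontin and connective tissue growth factor. Fibronectin (Fn1, 1.31, limma adjusted p = 0.00151), endothelin 1 (Edn1, 0.71, limma adjusted p = 0.00299) and Tgfb1 (0.42, limma adjusted p = 0.00612) were higher as well.

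With THZ1 in TAC, 5 of the 8 were lower and none was higher, beside 29.4% of all genes called. These 5 other than Tgfb1 were also past the threshold for the interaction, as was Edn1, beside 10.0% of all genes. The log2 fold change of TAC-THZ1 against TAC-Veh was -2.91 (SE 0.52, limma adjusted p = 9.46e-04) for Spp1. It was -2.30 (SE 0.34, limma adjusted p = 2.50e-04) for Ctgf and -2.19 (SE 0.47, limma adjusted p = 0.00291) for Timp1. Fn1 was lower by a log2 fold change of -1.66 (SE 0.29, limma adjusted p = 6.50e-04) and Tgfb1 by one of -0.40 (SE 0.11, limma adjusted p = 0.0152). Ccl2 and Egr1 were not past the threshold in either comparison, and Il6 was too sparse to test, with 6.93 to 38.6 normalized counts in TAC-Veh, 0 to 2.65 in Sham-Veh and 1.09 to 5.70 in TAC-THZ1. The median log2 fold change of the 8 was 1.01 with TAC and -1.06 with THZ1 in TAC, against -0.00 and 0.01 for all genes.

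**Figure D4:**
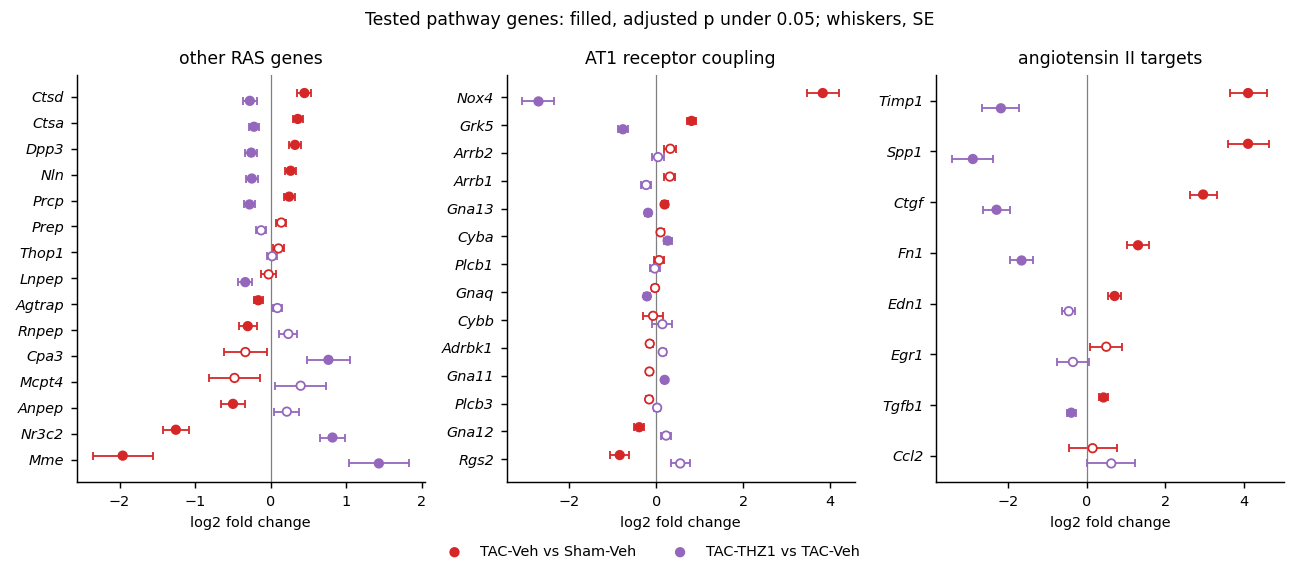
Fitted log2 fold changes (horizontal axes) of tested genes from the 3 lists, in TAC-Veh against Sham-Veh and in TAC-THZ1 against TAC-Veh, with filled points past a limma adjusted p under 0.05 and whiskers for the SE. Both comparisons share the TAC-Veh libraries, and the largest values are those of Timp1, Spp1 and Nox4 at 4.11, 4.11 and 3.83.

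The genes most like each member in pattern were ranked by Pearson r of log2(normalized count + 1) over the 16 libraries, a description that mostly reflects the differences between groups. For Ace they were Mmp2 (r = 0.986), Pkd2 (0.983) and Gab2 (0.980), and for Agtr1a they were Nnt (0.970), Asb14 (0.963) and Fam174b (0.963). Atp6ap2 was nearest to Dcbld2 (0.950), Tpm3 (0.947) and Itm2c (0.944), and Enpep to Tmcc3 (0.952), Spnb2 (0.940) and Spg20 (0.929). Mmp2 had a mean of 4170 normalized counts in TAC-Veh and of 1593 to 1697 in the other groups, and Nnt had a mean of 7217 in TAC-Veh and of 10951 to 12452 in the others. Between members, r was -0.94 for Ace and Agtr1a and 0.86 for Agtr1a and Mas1.

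The members shared little sequence with the coding transcripts of other genes. Stretches of 40 bases, the length of a read, were taken from the annotated coding transcripts of each member. For Agtr1a 2.69% of them also occurred in coding transcripts of another gene, which was Agtr1b. For the other members it was 0%. Only exact matches on the same strand were searched. Noncoding genes, pseudogenes and the rest of the genome were not searched. Ace overlaps the exons of the noncoding gene Gm11651 on the opposite strand, and the counting used strand.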

How the data were processed

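Total RNA from ventricle pieces of 16 mice was made into stranded mRNA libraries. The authors aligned reads to mm9 with TopHat 2.1.1, counted them per GENCODE gene with HTSeq in its reverse-stranded mode, and divided by DESeq2 size factors over all mouse libraries. The deposited signal is thus a normalized count, and dividing by each library's smallest step gave whole reads (tolerance 0.001) for 100% of values. Log2(normalized count + 1) was fitted with limma 3.58.1 in R 4.3.3 (1 mean per group, eBayes with a trend, no covariates) for 13331 genes that reached 10 in at least 4 libraries, with adjustment by Benjamini and Hochberg over these genes and calls at an adjusted p under 0.05. Scripts were tested on simulated data. Alternatives were a pseudocount of 5, no filter, a mean of at least 50, upper quartile scaling, only the groups compared, array weights, a replicate block, leaving out each library, and edgeR 4.0.16 and DESeq2 1.42.0 on recovered reads. The members and lists were chosen with earlier results of these data known. Genes named were all members, Ren1 and Agtr1b, up to 6 called genes per list and main comparison with the largest change and a mean of at least 10, and the 3 nearest in pattern. Other genes were named after their values were seen, and some list genes are not reported here. The labels give no sequencing batch or date. Intervals and limits on counts of 0 cover counting error only.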

Additional observations from a re-analysis of the deposited data

Results flagged for a closer look

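In groups of 4 libraries, the highest or lowest library was marked where its gap to the nearest other, as a share of the group's range, exceeded Dixon's critical value, which chance gives in about 5% of groups. This was so in 11 of 120 groups of a gene tested. Agt stood at 372 normalized counts in TAC-Veh replicate 1, where the others were 29.8 to 63.4. Agtr1a stood at 907 in Sham-THZ1 replicate 2, and Mas1 at 19.3 in Sham-Veh replicate 2 and at 33.4 in Sham-THZ1 replicate 3. Mme stood at 216 in Sham-Veh replicate 2 and at 159 in Sham-THZ1 replicate 2. Among coupling and target genes, the libraries were Grk5 at 664 in Sham-Veh replicate 4, Gna13 at 886 in Sham-Veh replicate 3, Ctgf at 4159 in TAC-THZ1 replicate 4, and Edn1 at 250.4 in TAC-Veh replicate 1 and at 152 in TAC-THZ1 replicate 3.

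For 10 of the genes described, the interaction of surgery and drug in limma was past an adjusted p under 0.05, which 10.0% of all genes passed. Those outside the members were named for calls in the main comparisons, which share TAC-Veh, so nothing is read from this count. The difference, on the log2 scale, was -1.46 for Ace (-1.39 in TAC and 0.07 in sham) and 1.10 for Agtr1a (0.95 in TAC and -0.15 in sham). It was 1.21 for Nr3c2, -2.43 for Nox4 and -1.11 for Grk5. Among the angiotensin II targets it was -2.49 for Timp1, -2.69 for Spp1, -2.18 for Ctgf, -1.94 for Fn1 and -0.83 for Edn1.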

How the results depend on the processing

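No result that passed its threshold changed direction under any alternative run. As a description, the log2 fold change with TAC ranged over the alternatives from 1.42 to 1.65 for Ace and from -1.26 to -0.99 for Agtr1a. Of 348 recomputed counts of calls, 326 stayed within 1.5 times the main count. The share of all genes called in each alternative is not given here. A gain or loss of calls in these lists can thus not be told apart from one over all genes. With only the groups compared, the count of calls for THZ1 in TAC was 2 members, 1 other gene of the system and 2 coupling genes, and the other genes numbered 1 for THZ1 in sham and 1 for TAC under THZ1. With array weights, the other genes numbered 3 for THZ1 in TAC, 1 for THZ1 in sham and 3 for TAC under THZ1, and the coupling genes 3 for THZ1 in TAC. DESeq2 called 8 coupling genes with TAC. Leaving out 1 library at a time gave 2 to 5 members and 1 to 2 other genes for the interaction, 3 to 10 other genes and 2 to 6 coupling genes for THZ1 in TAC, and 0 to 1 other genes for TAC under THZ1. Cma1 was called with TAC without TAC-Veh replicate 1 or TAC-Veh replicate 4, and Agt with THZ1 in TAC without TAC-Veh replicate 1. Atp6ap2 lost its call with THZ1 in TAC without TAC-THZ1 replicate 2. A mean of at least 50 removed Cma1 and Mas1.

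Same-numbered libraries of different groups did not deviate together as a set (median r 0.0215 over 24 pairs, 2 of them over 0.1). Their r ran from -0.43 to 0.164. This gave no sign that the numbers pair the mice, but it cannot exclude a pairing. With the replicate block, 5 members were called with TAC (Cma1 was added), 5 with THZ1 in TAC, 0 in sham, 1 for TAC under THZ1 and 2 for the interaction. Mas1, Cma1 and Agt rest on few reads, which limits them most. Agtr2 and Ren1 were not measurable at this depth.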
